A study of Bos taurus with 12 samples.

Results

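The miR-199 and miR-214 family comprised 5 of the 755 bovine mature miRNA names counted in granulosa cells, namely bta-miR-199a-5p, bta-miR-199a-3p, bta-miR-199b, bta-miR-199c and bta-miR-214. The members were taken by name, and a name listed under several precursor hairpins was represented by the hairpin entry with the most reads. All 5 names were among the 378 detected, which required 1 read or more in 2 or more replicates of one group, and all 5 were detected in all 4 groups. As described below, bta-miR-199c had almost no reads apart from those of bta-miR-199a-3p, so the family gave at most 4 separate measurements.

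The samples were granulosa cells, the somatic cells that surround the oocyte inside the follicle and produce estradiol. They came from healthy Simmental heifers whose estrus had been synchronized with a prostaglandin F2α analogue and a GnRH analogue, so that this treatment was shared by all groups. Granulosa cells of the smaller subordinate follicles (SF) and of the larger dominant follicles (DF) were taken at slaughter on day 3 or day 7 of the cycle, from different animals on the 2 days, and each of the 4 groups had 3 libraries labelled as biological replicates. The follicle class was set by diameter alone, with limits that differed between the days. The follicular fluid was pooled by follicle size and then spun down to collect the cells. The methods counted far fewer dominant than subordinate follicles on both days, and the fewest were the dominant follicles of day 7, which numbered 3. The labels do not tie a library to an animal, so p-values measure the spread between these libraries.

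In vertebrates, miR-199a hairpins lie on the strand opposite to dynamin genes, and one of them shares a long non-coding transcript with miR-214. A hairpin can give 2 mature miRNAs, one from its 5′ arm and one from its 3′ arm. The miRNAs of this transcript are known for their high level in fibroblasts and other mesenchymal cells and for their induction during fibrosis and TGF-beta signalling; miR-199a-5p is known to target caveolin 1, and miR-199a-3p to target MTOR and MET. In the RefSeq annotation of cattle (assembly ARS-UCD2.0, used for names and neighbours only, since the reads were mapped to another build), MIR214 and MIR199A-1 both lie within DNM3 and within the non-coding gene LOC132342463. MIR199A-2 lies within DNM2, MIR199B within DNM1, and MIR199C within NUP88, a gene of the nuclear pore.

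The reads on known miRNAs ranged from 160418 to 405129 per library, with a median of 297448.5, and 3 reads, taken as the limit that a count of 0 allows, were 0.000741% to 0.00187% of a library. These limits cover counting error only, and the spread between replicates was wider, the chi-square per degree of freedom being 23.0 (SF) and 30.2 (DF) on day 3 and 79.4 (SF) and 78.7 (DF) on day 7. The shallowest library was DF day 7 replicate 2. Replicates of DF at day 7 also differed from each other in miRNAs of other cell types, as given at the end with the values of each library.

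The counts of the names overlapped in known ways. The 5 names were listed in 11 entries, each a pair of a mature miRNA and a hairpin. The 3 entries of bta-miR-199a-3p differed by at most 4 reads in any library, and the 2 entries of bta-miR-199a-5p by at most 1, so neither could be assigned to one hairpin. The entries kept for bta-miR-199a-3p and bta-miR-199c were equal in 11 of 12 libraries and 1 read apart in SF day 7 replicate 3 (212 and 213 reads). All values below for bta-miR-199a-3p therefore stand for both names. bta-miR-199b had 1 entry, on the mir-199b hairpin, where bta-miR-199a-3p was also listed. Its reads may in part be shared with the similar bta-miR-199a-5p, and its counts are uncertain to that extent. Of the 3 miRNAs annotated at or beside these hairpins on the same loci, bta-miR-3120, bta-miR-3604 and bta-miR-3154, only 1 read was counted in all 12 libraries together.

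By total reads over the 12 libraries bta-miR-199a-3p ranked 58th, bta-miR-199a-5p 73rd, bta-miR-214 134th and bta-miR-199b 155th of the 755 names. Levels are given below as normalized counts, raw reads divided by the size factor of the library, so that libraries can be compared for one miRNA.

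bta-miR-199a-3p, the 3′ arm and the member with the most reads, had 216, 177 and 244 normalized counts in the 3 SF libraries of day 3 and 127, 160 and 135 in DF. At day 7 it had 184, 249 and 219 in SF, and 1295, 1298 and 1415 in DF. The 3 DF libraries of day 7 stood far above the other 9 and were close to each other, while the SF libraries of both days lay in one range. The means were 1336 ± 68.5 in DF at day 7, 217 ± 32.8 in SF at day 7, 212 ± 34.0 in SF at day 3 and 141 ± 16.9 in DF at day 3 (SD, n = 3). In this order the SF groups could not be told apart within their spread, and the lowest group, DF at day 3, lay below every SF library of both days.

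bta-miR-199a-5p, the 5′ arm, was listed on the mir-199a hairpins but not, as bta-miR-199a-3p was, on mir-199b. It had 277, 241 and 233 normalized counts in SF at day 3 and 118, 141 and 118 in DF. At day 7 it had 168, 169 and 142 in SF, and 735, 496 and 902 in DF. The DF libraries of day 7 were again above all others, here with a wider spread and with replicate 2 the lowest. The order of the means was DF at day 7 (711 ± 204), SF at day 3 (250 ± 23.8), SF at day 7 (160 ± 15.1) and DF at day 3 (126 ± 13.2; SD, n = 3). The last 2 groups did not overlap but were close, the lowest SF library of day 7 being about 1 normalized count above the highest DF library of day 3.

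bta-miR-214, which shares a transcript with mir-199a-1, was less abundant, with 21, 20 and 19 raw reads in SF at day 3 and 13, 26 and 5 in DF. At day 7 it had 23, 22 and 22 raw reads in SF and 161, 63 and 215 in DF. As normalized counts these were 19.8, 28.5 and 24.5 in SF and 10.3, 16.8 and 5.17 in DF at day 3. At day 7 they were 21.7, 23.5 and 22.7 in SF and 146, 111 and 205 in DF. The DF libraries of day 7 were above every other library, the SF libraries of the 2 days overlapped, and the DF libraries of day 3 were the lowest. The means were 154 ± 47.4, 24.3 ± 4.35 (SF, day 3), 22.6 ± 0.931 (SF, day 7) and 10.8 ± 5.83 (SD, n = 3).

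bta-miR-199b had 25.5, 24.2 and 19.4 normalized counts in SF and 10.3, 20.7 and 12.4 in DF at day 3. At day 7 it had 11.3, 17.1 and 8.25 in SF and 67.8, 59.8 and 74.2 in DF. Its DF libraries of day 7 were above all others, SF and DF overlapped at day 3, and no other pair of neighbours in the order of the means was separate. The means were 67.3 ± 7.23 in DF at day 7, 23.0 ± 3.21 in SF at day 3, 14.5 ± 5.48 in DF at day 3 and 12.2 ± 4.51 in SF at day 7 (SD, n = 3).

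**Figure D1:**
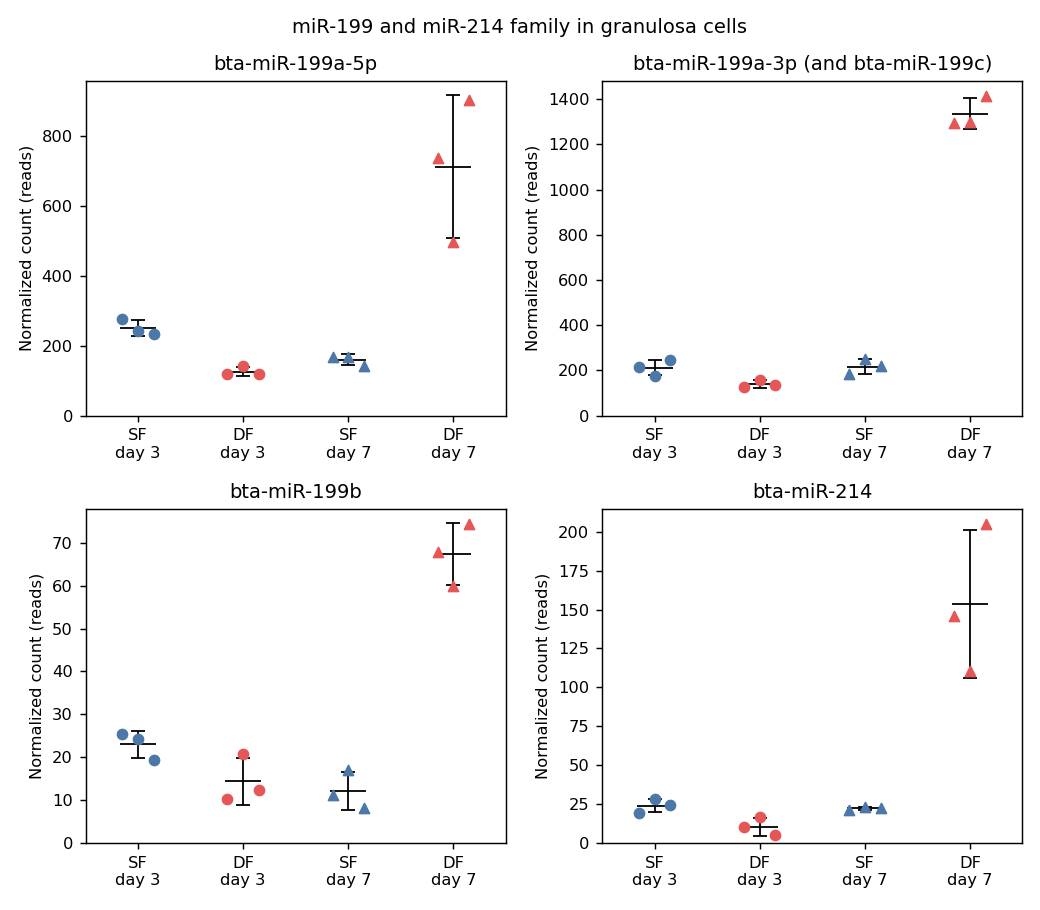
Normalized counts (reads, linear axes from 0) of bta-miR-199a-5p, bta-miR-199a-3p (which also stands for bta-miR-199c), bta-miR-199b and bta-miR-214 in the 12 libraries. Points are libraries (SF blue, DF red, day 3 circles, day 7 triangles), and bars are the mean and SD of 3. In each of the 4 plots the 3 DF libraries of day 7 lie above the other 9.

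The share of the 4 distinct members left out bta-miR-199c, but any reads shared by bta-miR-199b and bta-miR-199a-5p would be counted at both. Together these members took 0.195%, 0.165% and 0.186% of the reads on known miRNAs in SF at day 3. In DF at day 3 they took 0.0959%, 0.129% and 0.112%. At day 7 the shares were 0.135%, 0.151% and 0.118% in SF and 0.805%, 0.696% and 0.836% in DF. The family thus made up a small part of each library, with means of 0.182% ± 0.0153, 0.112% ± 0.0166, 0.135% ± 0.0167 and 0.779% ± 0.0734 (SD, n = 3) in these 4 groups. These are shares of reads in bulk samples, in which more cells of a type that holds the miRNA and more of it per cell cannot be told apart.

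Between SF and DF at day 3, the earlier comparison of the follicle classes, the fitted levels of the 4 distinct members were 1.46-fold to 2.04-fold higher in SF, though not all passed the test. To be called changed, a miRNA needed a log2 fold change of 1 or more in either direction, p no higher than 0.05, and a false discovery rate no higher than 10% (edgeR quasi-likelihood test with Benjamini-Hochberg adjustment over the 335 miRNAs tested). By this rule 1 of the 5 names, bta-miR-214, was called higher in SF, where 3.88% of all miRNAs tested were. Its log2 fold change of 1.03 (SE 0.38, adjusted p = 0.0739, edgeR) was close to the threshold and rested on 5 to 26 reads in the DF libraries, and the call was lost when any library other than DF day 3 replicate 2 was left out (log2 fold change 0.75 to 1.17 in those 5 fits) and with DESeq2.

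bta-miR-199a-5p had the smallest adjusted p of the family at day 3, with a log2 fold change of 0.94 (SE 0.17, adjusted p = 0.000377, edgeR) that stayed under 1. Without DF day 3 replicate 2 this fold change was 1.02 and passed all 3 thresholds. For bta-miR-199a-3p the log2 fold change was 0.55 (SE 0.18, adjusted p = 0.0478, edgeR). bta-miR-199b did not pass, at 0.59 (SE 0.34, adjusted p = 0.289, edgeR). Every SF library was above every DF library for 4 of the 5 names, all but bta-miR-199b, as for 14.9% of all miRNAs tested. Without the fold threshold 4 of the 5 names passed as higher in SF, against 8.66% of all.

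At day 7, with the same follicle classes compared later in the cycle, all 5 names were called lower in SF, where 18.3% of the 350 miRNAs tested were. All SF libraries were below all DF libraries for all 5, as for 23.1% of all. bta-miR-199a-3p was 5.84-fold higher in DF, a log2 fold change of SF against DF of -2.55 (SE 0.22, adjusted p = 4.25e-05, edgeR), and ranked 4th by p among all miRNAs tested. bta-miR-214 was 6.41-fold higher in DF (log2 fold change -2.68, SE 0.30, adjusted p = 0.000203, edgeR).

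The 5′ arm moved in the same direction, with bta-miR-199a-5p 4.20-fold higher in DF (log2 fold change -2.07, SE 0.26, adjusted p = 0.000343, edgeR). For bta-miR-199b the difference was 5.19-fold (log2 fold change -2.38, SE 0.35, adjusted p = 0.000615, edgeR). Whether these fold changes differed between members at day 7 was not tested. No call of a member at day 7 was lost when a library was left out.

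Within DF, the 5 names were all called higher at day 7 than at day 3, where 24.4% of the 360 miRNAs tested were. The DF libraries of day 7 were above those of day 3 for all 5, as for 25% of all. bta-miR-214 had the largest fold in the family, 13.4-fold (log2 fold change 3.74, SE 0.38, adjusted p = 2.3e-06, edgeR), against a day 3 level that rested on few reads. bta-miR-199a-3p was 9.36-fold higher (log2 fold change 3.23, SE 0.22, adjusted p = 2.99e-08, edgeR).

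The remaining members rose less. bta-miR-199a-5p was 5.56-fold higher (log2 fold change 2.48, SE 0.25, adjusted p = 2.33e-06, edgeR) and bta-miR-199b 4.49-fold (log2 fold change 2.17, SE 0.33, adjusted p = 0.000117, edgeR). This comparison and the one at day 7 share the 3 DF libraries of day 7, so they are not independent of each other.

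Within SF, none of the 5 names was called between the days (edgeR), and of all 337 miRNAs tested 2 were, or 0.593%. At an unadjusted p of at most 0.05 only bta-miR-199a-5p passed (edgeR), with all 3 libraries of day 7 below those of day 3. With DESeq2 no member was called either, though bta-miR-199a-5p failed there only on the fold threshold (log2 fold change -0.63, adjusted p = 0.0948, DESeq2). In edgeR its log2 fold change was also -0.63 (SE 0.21, adjusted p = 0.187, edgeR). For bta-miR-199b the value was -0.89 (SE 0.42, adjusted p = 0.448, edgeR), also with no overlap of libraries, as in 7.12% of all miRNAs tested.

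The 3′ arm and bta-miR-214 lay near 0 in SF. The log2 fold change of bta-miR-199a-3p was 0.06 (SE 0.21, adjusted p = 0.971, edgeR) and that of bta-miR-214 was -0.07 (SE 0.36, adjusted p = 0.971, edgeR). These standard errors leave room for changes of either sign, and the sign of both turned when SF day 3 replicate 2 was left out (to -0.07 and 0.05).

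**Figure D2:**
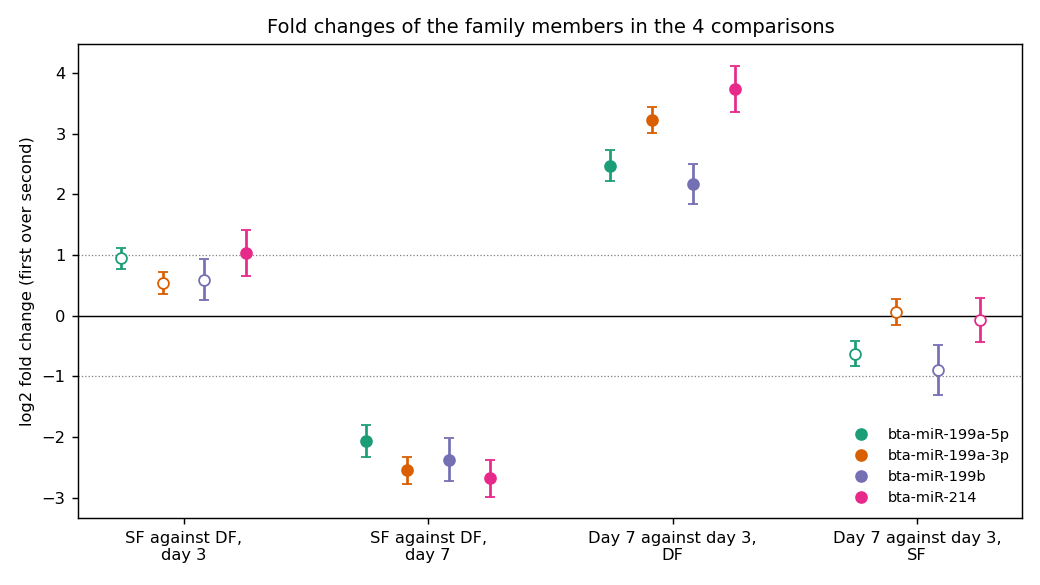
Log2 fold changes (vertical axis, first group over second) with standard errors of the 4 distinct members in the 4 comparisons between pairs of groups, from edgeR. Filled points passed all 3 thresholds, open points did not, and dotted lines mark a log2 fold change of 1 in either direction. The members lie between 0.55 and 1.03 at day 3, between -2.68 and -2.07 at day 7, and between 2.17 and 3.74 within DF.

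The difference between SF and DF itself changed between the days. In the fit over all 12 libraries the interaction of follicle class and day, the day 7 log2 difference minus that of day 3, was called negative for all 5 names, as for 14.3% of the 378 miRNAs tested. It was -3.21 for bta-miR-199a-3p (SE 0.28, adjusted p = 4.99e-07, edgeR), which had the smallest p of all miRNAs tested. It was -3.15 for bta-miR-199a-5p (SE 0.32, adjusted p = 1.58e-06, edgeR) and -3.86 for bta-miR-214 (SE 0.50, adjusted p = 1.98e-05, edgeR). bta-miR-199b had -3.11 (SE 0.48, adjusted p = 0.000116, edgeR), although its SF and DF libraries overlapped at day 3.

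bta-miR-199c was also listed on its own hairpin, mir-199c, with few reads. There it had 8, 5 and 14 raw reads in SF and 8, 7 and 9 in DF at day 3, and 4, 10 and 6 in SF and 55, 34 and 57 in DF at day 7. The DF libraries of day 7 were again the highest 3, and these reads were 2.05% to 7.41% of those of bta-miR-199a-3p. With this entry in place of the shared one, an alternative chosen after seeing the data, the log2 fold change was -2.90 between SF and DF at day 7 (adjusted p = 0.0005, edgeR) and 3.02 between the days in DF (adjusted p = 1.54e-05, edgeR). At day 3 and in SF it was 0.68 (adjusted p = 0.48, edgeR) and -0.63 (adjusted p = 0.871, edgeR).

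Because several members can come from one transcript or hairpin, their ratios of raw reads were compared within libraries, where the size factor cancels. The 4 ratios were each tested for a difference among the 4 groups with an exact permutation test over all 369600 assignments of the libraries, and p-values were adjusted over the 4 ratios. The ratio of the 5′ arm to the 3′ arm, bta-miR-199a-5p over bta-miR-199a-3p, was 1.28, 1.36 and 0.952 in SF and 0.931, 0.883 and 0.870 in DF at day 3. At day 7 it was 0.913, 0.678 and 0.651 in SF and 0.568, 0.382 and 0.638 in DF. The 5′ arm was thus the larger in 2 of 3 SF libraries of day 3 and the smaller in the other 10, and the 3 lowest ratios were those of DF at day 7. The means were 1.20 ± 0.218, 0.895 ± 0.0323, 0.747 ± 0.144 and 0.529 ± 0.132 (SD, n = 3 in each group; exact permutation p = 0.00039, adjusted p = 0.00156). bta-miR-199a-3p was also listed on the mir-199b hairpin, so this ratio does not compare the arms of one fixed set of hairpins.

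bta-miR-214 and bta-miR-199a-3p kept a ratio whose group means lay between 0.0749 and 0.118, with overlapping libraries. Those means were 0.118 ± 0.0379 and 0.0749 ± 0.0340 in SF and DF at day 3 and 0.105 ± 0.0118 and 0.114 ± 0.0297 at day 7 (SD, n = 3; exact permutation adjusted p = 0.292). A p above the threshold does not show that the ratio was the same in the groups. Against the 5′ arm the ratio of bta-miR-214 did differ, with means of 0.0984 ± 0.0243 and 0.0835 ± 0.0379 at day 3 and 0.143 ± 0.0154 and 0.216 ± 0.0157 at day 7 in SF and DF (SD, n = 3; exact permutation p = 0.00747, adjusted p = 0.0149). For this ratio the 3 DF libraries of day 7, at 0.198, 0.223 and 0.227, were the highest of the 12.

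The ratio of bta-miR-199b to bta-miR-199a-3p, the 2 miRNAs listed on the mir-199b hairpin, was higher at day 3 than at day 7. Its group means were 0.111 ± 0.0294 (SF) and 0.101 ± 0.0254 (DF) on day 3, and 0.0560 ± 0.0162 and 0.0503 ± 0.00366 at day 7 (SD, n = 3; exact permutation p = 0.0126, adjusted p = 0.0168). All 6 libraries of day 3 lay above the 6 of day 7. Most of the reads of bta-miR-199a-3p can come from other hairpins, so this is no ratio of the arms of one hairpin. Among the reads of bta-miR-199b and bta-miR-199a-5p together, bta-miR-199b made up 8.41% ± 0.724 and 10.1% ± 2.44 in SF and DF at day 3 and 7.00% ± 1.95 and 8.94% ± 1.63 at day 7 (SD, n = 3).

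**Figure D3:**
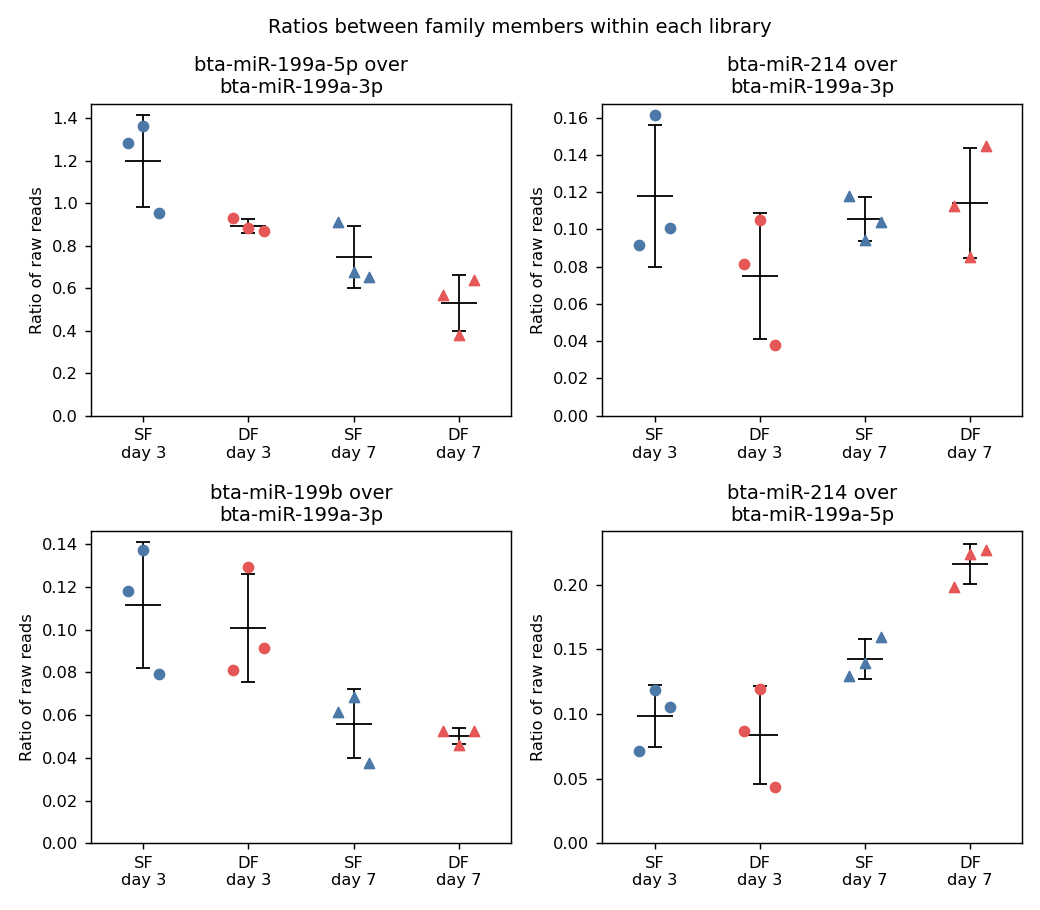
Ratios of raw reads (vertical axes, from 0) between pairs of members within each of the 12 libraries. Points are libraries (SF blue, DF red, day 3 circles, day 7 triangles), and bars are the mean and SD of 3. The ratio of bta-miR-199a-5p to bta-miR-199a-3p is lowest, and that of bta-miR-214 to bta-miR-199a-5p highest, in the 3 DF libraries of day 7.

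The members' own patterns over the 12 libraries were alike, as a description. Pearson's r of log2 normalized counts (plus 1) with bta-miR-199a-3p was 0.94 for bta-miR-199a-5p, 0.90 for bta-miR-199b and 0.95 for bta-miR-214, over 12 libraries. With the group means removed these values were 0.24, 0.42 and 0.27. Over the 9 libraries other than DF at day 7, an alternative chosen after seeing the data, they were 0.64, 0.29 and 0.76.

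Among 185 miRNAs with a mean of at least 10 reads, 8 that are no members had the pattern most like bta-miR-199a-3p. They were bta-miR-27a-3p and bta-miR-181a (r of 0.99 each), bta-miR-181b (0.99), bta-miR-24-3p (0.98), bta-miR-193b (0.97), bta-miR-130b (0.97), bta-miR-23a (0.97) and bta-miR-184 (0.96), over 12 libraries. bta-miR-23a, bta-miR-27a-3p and bta-miR-24-3p are known as products of one cluster. With group means removed their r lay between 0.19 for bta-miR-184 and 0.69 for bta-miR-181a, and over the 9 libraries other than DF at day 7 between 0.16 and 0.94 for the same pair. bta-miR-181a, the most abundant of the 8, had 963 ± 91.4 and 585 ± 95.1 normalized counts in SF and DF at day 3 and 1057 ± 295 and 5857 ± 1029 at day 7 (SD, n = 3). DF at day 7 also had the highest mean for the other 7.

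The family is often named with other miRNAs of TGF-beta signalling and fibrosis, and a list of 12 of these was examined. The list holds both arms of miR-21 and several miR-29 miRNAs, so its counts are not of 12 independent miRNAs. At day 3, 3 of the 12 were called higher and 1 lower in SF, with 5.67% of all miRNAs called in either direction. At day 7, 8 of 12 were called lower in SF (18.3% of all) and none higher, with a median log2 fold change of -1.69 against -0.05 for all miRNAs tested. In DF, 10 of 12 rose from day 3 to day 7 (24.4% of all) and none fell, with a median of 2.43 against 0.05. In SF 1 of 12 rose (0.593% of all were called in either direction), with a median of 0.15 against 0.03. Only bta-miR-192 and bta-miR-26a were not called in any of the 4 comparisons.

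The members of the list that passed in 2 or more comparisons were as follows. bta-miR-21-5p, the guide strand of the best known fibrosis miRNA, had 2706, 2626 and 2574 normalized counts in SF and 709, 769 and 861 in DF at day 3. At day 7 it had 2333, 8254 and 5036 in SF and 39128, 31545 and 45762 in DF. For this miRNA DF was below SF at day 3 and above it at day 7, with no overlap on either day. Its log2 fold changes were 1.71 and -2.81 for SF against DF at day 3 and day 7 and 5.62 within DF (adjusted p = 2.41e-10, 0.000507 and 2.47e-10, edgeR).

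Its passenger strand bta-miR-21-3p gave 2.10, -3.04 and 6.61 in the same 3 comparisons, and bta-miR-155, known from activated leukocytes and fibroblasts, gave 1.96, -3.30 and 7.23. bta-miR-155 was also the 1 list member called in SF, 1.89 higher in log2 at day 7 (SE 0.37, adjusted p = 0.0377, edgeR). That call was lost, with 0 miRNAs called in SF, without SF day 3 replicate 1, SF day 3 replicate 2 or SF day 7 replicate 2, and with a minimum of 10 reads. bta-miR-34a, a target of p53, went the other way at day 3, with -1.48, and gave -3.66 at day 7 and 2.48 within DF. Its DF libraries of day 7 had 80.5, 165 and 14.3 normalized counts, of which the last lay within the range of DF at day 3 (11.1 to 17.6).

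The collagen-targeting bta-miR-29a and bta-miR-29b were called lower in SF at day 7 (log2 fold change -1.42 and -2.15) and higher in DF at day 7 than at day 3 (2.39 and 2.35), but not between SF and DF at day 3 (0.48 and 0.23). The same held for bta-miR-143, a miRNA of smooth muscle and stroma, with -1.32, 1.84 and 0.53, and for the muscle miRNA bta-miR-133a, with -1.96, 3.54 and 2.13. bta-miR-133a had fewer than 10 normalized counts in every library. bta-miR-29c and bta-miR-145 were called only within DF, at 2.68 and 1.57. In DF, bta-miR-29c had 1, 1 and 2 raw reads at day 3 and 6, 1 and 15 at day 7, with overlapping libraries. bta-miR-29b had 1, 3 and 8 raw reads in DF at day 3 and 20, 7 and 23 at day 7. Calls of bta-miR-29b and bta-miR-29c thus rested on few reads.

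Because the family is known from mesenchymal cells, lists of miRNAs of other cell types were set beside it. The theca, stroma and smooth muscle list (bta-miR-143, bta-miR-145, bta-miR-133a, bta-miR-133b and bta-miR-1) summed to 3909 to 5181 normalized counts in SF and 2334 to 4123 in DF at day 3, and to 3037 to 5195 in SF and 10475, 7121 and 15025 in DF at day 7. Nearly all of this sum was bta-miR-143, and bta-miR-133b was at 0 in all 6 SF libraries. At day 7, 2 of its 5 miRNAs were called lower in SF (18.3% of all), and 3 of 5 were called higher at day 7 in DF (24.4% of all). bta-miR-143, bta-miR-145 and bta-miR-133a were also in the TGF-beta and fibrosis list, so the 2 lists share these values.

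The leukocyte list (bta-miR-142-3p, bta-miR-142-5p, bta-miR-150 and bta-miR-223) summed to 114 to 233 in SF and 122 to 172 in DF at day 3, to 195, 746 and 221 in SF at day 7, and to 3290, 9134 and 828 in DF at day 7. Nearly all of this sum was bta-miR-142-5p and bta-miR-150. bta-miR-142-3p was at 0 in all 6 libraries of day 3 and had 5, 4 and 1 raw reads in DF at day 7. bta-miR-223 had 6, 5 and 5 raw reads in DF at day 7. Calls of bta-miR-142-3p and bta-miR-223 thus rested on few reads. Of its 4 miRNAs 3 were called lower in SF at day 7 (18.3% of all), and all 4 were called higher at day 7 in DF (24.4% of all).

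The erythrocyte list (bta-miR-451, bta-miR-144 and bta-miR-486) summed to 333 to 1737 in SF and 779 to 1149 in DF at day 3. The sums of day 7 were 489, 463 and 544 in SF and 1370, 2456 and 855 in DF, with no overlap. Both of its miRNAs tested at day 7, bta-miR-451 and bta-miR-486, were called lower in SF (18.3% of all), and none of the 3 was called between the days in DF. The endothelium list (bta-miR-126-3p and bta-miR-126-5p) summed to 108 to 138 in SF and 65.1 to 107 in DF at day 3, and to 96.1 to 233 in SF and 137 to 169 in DF at day 7. Neither of its miRNAs was called between SF and DF at day 7, where the libraries overlapped, and 1 of 2, bta-miR-126-3p, was called higher at day 7 in DF (24.4% of all). The epithelium list (5 miRNAs) stayed at or below 22.7 in every library.

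A list of 3 granulosa and gonad miRNAs moved the other way. The granulosa and gonad list (bta-miR-202, bta-miR-383 and bta-miR-224) summed to 2753 to 3146 in SF and 3464 to 4026 in DF at day 3, to 2461 to 2802 in SF at day 7, and to 808, 392 and 1048 in DF at day 7. All 3 of its miRNAs were called higher in SF at day 7, as were 15.1% of all miRNAs tested, and 2 of 3 fell from day 3 to day 7 in DF, as did 15.8% of all. Most of this sum was bta-miR-202. bta-miR-383 was at 0 in all 3 DF libraries of day 7, but it had only 3, 2 and 2 raw reads in SF at day 7. Its call thus rested on few reads. The labelled cell type thus had its list at a lower level in DF at day 7 than in any other group.

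Within the 3 DF libraries of day 7, the 5′ arm bta-miR-199a-5p, then bta-miR-199b and bta-miR-214, the theca and stroma list and the granulosa list had the same order, with replicate 2 lowest and replicate 3 highest. The leukocyte and erythrocyte lists had the reverse order, and bta-miR-199a-3p differed by less than 10% among the 3. With 3 libraries such an order is a description. Between SF and DF at day 7 the theca and stroma, leukocyte and erythrocyte lists differed in the same direction as the family and the granulosa list in the opposite one. Within DF between the days, calls in the theca and stroma, leukocyte and endothelium lists had the direction of the family, and those in the granulosa list the opposite one. The part of these cell types in the differences of the family was not tested.

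**Figure D4:**
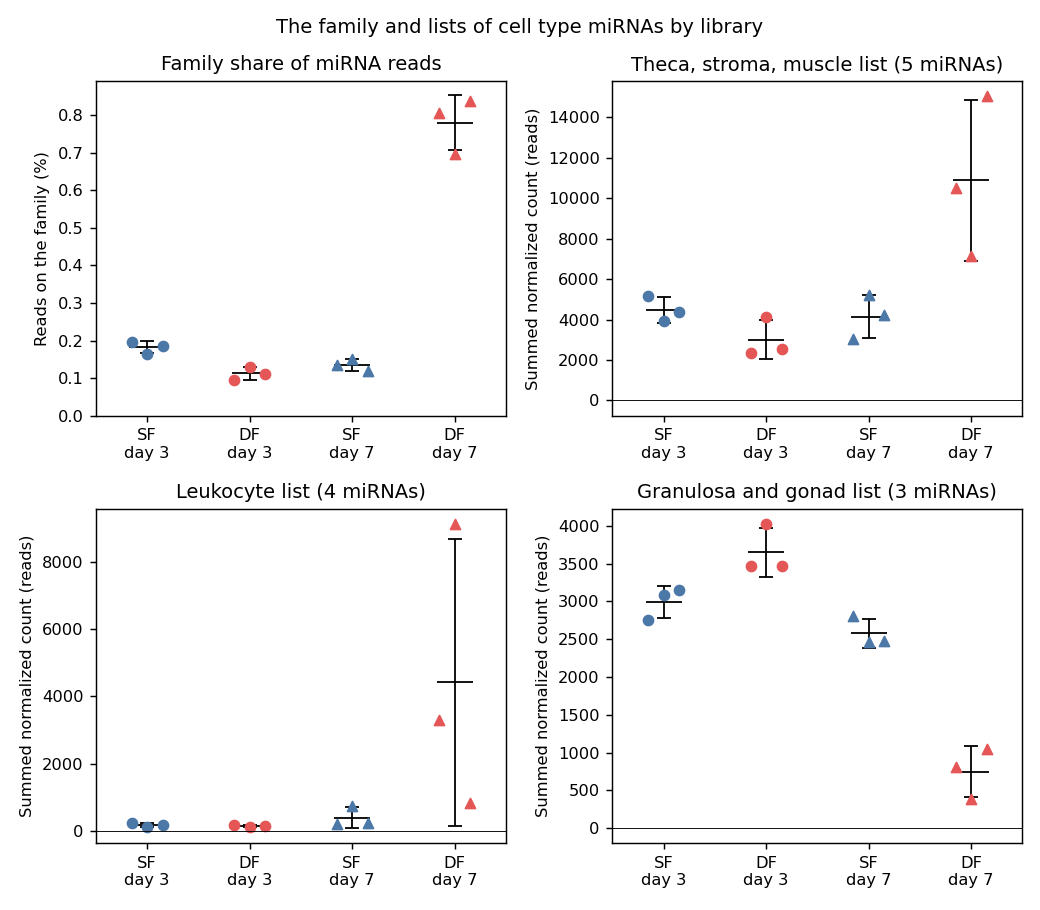
Share of the reads on known miRNAs taken by the 4 distinct members (%), and summed normalized counts (reads) of the theca, stroma and muscle, the leukocyte, and the granulosa and gonad lists, in the 12 libraries. Points are libraries (SF blue, DF red, day 3 circles, day 7 triangles), and bars are the mean and SD of 3. In DF at day 7 the family share is 0.696% to 0.836%, the first 2 lists are at their highest, and the granulosa list is at its lowest.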

How the data were processed

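Small RNA of 12 granulosa cell samples was sequenced. According to the study's methods and processing notes, the authors called bases with CASAVA 1.8.0, checked them with FastQC, trimmed adapters with cutadapt, removed reads shorter than 18 bases, and counted reads on known bovine miRNAs with miRDeep2 after alignment to the bovine genome. They deposited raw read counts per pair of mature miRNA and precursor (906 entries, 755 names), with no normalization. Reads matching several precursors were counted at each, so the entry with the highest total was kept.

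Groups and replicate numbers were taken from the sample labels. Each pair of groups was compared on the raw counts of its 6 libraries, over the miRNAs detected in either group, with the two-sided quasi-likelihood F test of edgeR 4.0.16 in R 4.3.3, with median-of-ratios scaling and Benjamini-Hochberg adjustment. The interaction was fitted to all 12 libraries. Standard errors are the log2 fold change divided by the square root of F. Fold changes carry a prior count of 0.125. Size factors for normalized counts were taken over all 12 libraries and scaled to a mean of 1. The tests were checked on simulated data. Python 3.11.15 was used for ratios and figures.

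The miRNAs named are the 5 members, the 8 others most like bta-miR-199a-3p, and the TGF-beta and fibrosis list. The members and lists were chosen with earlier results of these data known. Mature sequences and coordinates were not used here. The labels give the groups the same replicate numbers. For SF and DF at day 7, deviations from the group means of same-numbered libraries correlated with r of 0.13, 0.16 and 0.18. Each was above the limit of 0.1, and no other comparison passed this check for all its numbers. No label ties the numbers to animals. The fits given in the results therefore did not pair libraries, and the replicate number entered only as a block in an alternative fit. The alternatives were DESeq2 1.42.0, TMM or library size scaling, other filters on low counts, all libraries in one fit, counts summed over precursors, a replicate block, other thresholds, the own hairpin entry of bta-miR-199c and leaving out each library.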

Additional observations from a re-analysis of the deposited data

Results flagged for a closer look

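The difference between SF and DF changed between day 3 and day 7 for all 5 names, by a test of the interaction itself over the 12 libraries (edgeR quasi-likelihood test). The change on the log2 scale was -3.21 for bta-miR-199a-3p, -3.15 for bta-miR-199a-5p, -3.11 for bta-miR-199b, -3.21 for bta-miR-199c and -3.86 for bta-miR-214. The first and the fourth value rest on the same reads. Each value came from a higher level in SF at day 3 and a higher level in DF at day 7, and for bta-miR-199b the day 3 libraries overlapped. When each library was left out in turn the values ranged from -3.32 to -3.10 for bta-miR-199a-3p and from -4.34 to -3.53 for bta-miR-214.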

How the results depend on the processing

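All 5 names kept their calls at day 7, between the days in DF and in the interaction under every alternative run. The call count of 1 name at day 3 did not hold. It was 0 with DESeq2, library size alone, all 12 libraries in one fit, counts summed over precursors and a false discovery rate of 5%, and 4 without the fold threshold, and it ranged from 0 to 2 when one library was left out (2 without DF day 3 replicate 2). Over all miRNAs the 19 calls at day 3 became 11 with DESeq2, 12 with at least 10 reads in at least 3 libraries, 8 in one fit of 12 libraries, 56 without the fold threshold, and 10 to 21 with one library left out. The 145 calls within DF became 92 with at least 10 reads. The 2 calls within SF became 5 with DESeq2, 12 with no filter, 0 with at least 10 reads, 1 in one fit, and 0 to 20 with one library left out, the 20 without SF day 7 replicate 1. With the replicate number as a block the members called were 1, 5, 5, 0 and 5 at day 3, at day 7, in DF, in SF and in the interaction, as without it, and the block changed the count of all calls by over 1.5 times only in SF, to 7. For bta-miR-199a-3p and bta-miR-199c in SF the log2 change was -0.10 with library size alone, and with one library left out it ranged from -0.10 to 0.15 for bta-miR-199a-3p, from -0.092 to 0.16 for bta-miR-199c and from -0.25 to 0.048 for bta-miR-214 (-0.07, -0.07 and 0.048 without SF day 3 replicate 2). It was -0.63 for bta-miR-199c on its own hairpin. The cause was not tested. Library size alone shifted the median of all miRNAs by -0.15 at day 7 and by -0.14 in DF and in SF.

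With one library left out, adjusted p (exact permutation) was 0.00208 to 0.0179 for bta-miR-199a-5p over bta-miR-199a-3p and 0.0612 to 0.786 for bta-miR-214 over bta-miR-199a-3p. It was 0.0136 to 0.0427 for bta-miR-199b over bta-miR-199a-3p and 0.00701 to 0.0427 for bta-miR-214 over bta-miR-199a-5p (exact permutation). With labels permuted only within replicate numbers (13824 assignments, the replicate block for these ratios, chosen after seeing the data), adjusted p (exact permutation) was 0.00694, 0.398, 0.0301 and 0.0208 in the same order, with no call changed. Depth limits bta-miR-214 and bta-miR-199b most, with as few as 5 and 8 reads in a library.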
